A study of Rattus norvegicus with 4 samples.

Results

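Genes that make cholesterol and fatty acids were examined in rat colon as a list of 44 genes. It was chosen by function, with earlier results of these data known. Of these, 40 had a row by name with a value on all 4 arrays, out of 6968 named genes measured in the series, and each was represented by 1 RefSeq transcript. The other 4, Scap, Srebf1, Stard4 and Npc1, are not analysed here because no row carried their name. By role, the measured genes were 17 enzymes of sterol synthesis, 5 of the 9 listed genes of sterol sensing and transport, 7 genes around fatty acid synthesis, 7 of desaturation and elongation and 4 of glycerolipid synthesis. None was left out by a filter on low values.

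Total RNA of colon tissue from male Sprague Dawley rats was hybridised to 1-color NimbleGen arrays with the dye Cy3, 1 array per rat, for 2 control rats and 2 MSCT rats. The MSCT rats, which the labels call case, had colitis induced with the hapten TNBS and then received GFP-labeled mesenchymal stem cells (MSCs) through the tail vein, so their colon RNA may hold RNA of donor cells. The control rats received no MSCs. They are normal rats in the sample descriptions and IBD (inflammatory bowel disease) rats in the paper, so colitis and transplantation cannot be told apart in the comparison, and the day of sampling of these arrays is not settled by the sources. All values below are log2 intensities or their differences, MSCT minus control, and levels are not set against each other between genes.

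Over the 18350 rows with values, the array medians lay between 848 and 893 in linear intensity. The groups were compared with limma, and a row was called at an unadjusted p under 0.05 with a difference over 2-fold, the limits given in the study's methods. This called 850 rows (4.63%), 389 higher (2.12%) and 461 lower (2.51%) in the MSCT group. An unadjusted limma p under 0.05 was found for 2196 rows (12.0%), 880 higher (4.80%) and 1316 lower (7.17%). With the default variance model 0 rows passed an adjusted p of 0.05, and the smallest adjusted p by limma was 0.257, so "rose" and "fell" below mean only that a gene passed the unadjusted limits. An exact two-sided permutation test of 2 arrays against 2 cannot give a p below 0.333. The epithelial cadherin gene Cdh1 lay between 14.53 and 14.73 and Epcam between 13.91 and 14.09 over the 4 arrays, and the 6 measured smooth muscle markers differed by -0.04 to 0.08, so markers of both layers of the wall were present on all arrays. The epithelium list as a whole leaned higher in the MSCT group (9 of 12, median 0.18). In 8 of the 12 (66.7%, against 21.3% of all rows) both MSCT arrays lay above both control arrays. All listed genes are named rows, and the 7068 named rows leaned higher than all rows, with 44.5% lower and a median of 0.05. Both MSCT arrays lay above both control arrays in 27.4% of named rows and below them in 20.4%.

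Cholesterol is built in the cell from acetyl-CoA, first through mevalonate to isoprenoid units, then through squalene to lanosterol, which a series of enzymes trims and rearranges to cholesterol. The genes of these enzymes are known targets of SREBP-2, a membrane-bound transcription factor encoded by Srebf2 that is released for transport to the nucleus when sterols in the endoplasmic reticulum are low. Insig proteins hold it back when sterols are high. The related SREBP-1 mainly drives genes of fatty acid synthesis. Enterocytes make cholesterol, and the renewing crypt epithelium needs sterols and fatty acids for new membranes.

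All 17 measured enzymes of sterol synthesis had a lower mean in the MSCT group than in the control group. Their median difference was -0.61 on the log2 scale, with a range from -1.05 (Hmgcs1) to -0.03 (Ebp), while the median over all rows was -0.02 and 52.0% of rows were lower. In 13 of the 17 genes (76.5%) both MSCT arrays lay below both control arrays, against 24.5% of all rows. At an unadjusted limma p under 0.05 were 8 of the 17 (47.1%), all lower, against 12.0% of all rows in either direction and 7.17% in this direction. By the methods' t-test 5 of the 17 had a p under 0.05 (29.4%, against 9.66% of all rows), all lower. In the limma fit only Hmgcs1 also passed the limit of 2-fold. These shares are descriptive, since the list was chosen with earlier results of these data known. In tissue RNA, fewer cells that express these genes and less of their RNA per cell cannot be told apart.

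The sign of the median did not rest on 1 array, but the number of genes past the p limit did vary with the arrays. With each gene centred on its control mean, the median over the 17 genes was -0.11 and 0.11 on control replicates 1 and 2 and -0.64 and -0.69 on MSCT replicates 1 and 2. All 17 genes were lower without control replicate 1 or without MSCT replicate 2, 16 without MSCT replicate 1 and 14 without control replicate 2, where Mvd, Nsdhl and Ebp turned. The number with an unadjusted limma p under 0.05 is not compared between these fits, because the lone array of a group is assumed to vary like the other group. Without MSCT replicate 1, the share of the 17 genes under this p was no higher than that of all rows in either direction. With equal array medians 16 of 17 were lower (Ebp changed sign), and with quantile normalization all 17.

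Most measured markers of dividing cells were lower too, but their median rested on the control arrays. Of 14 listed markers of cycling cells 7 were measured, and 6 were lower in the MSCT group, with a median difference of -0.57 and Cdk1 past both limits (fell by 1.23). Their summed intensity was 8431 and 10477 in the controls and 7173 and 7658 after MSCT, and Mki67 had no row by name. At an unadjusted limma p under 0.05 were 3 of the 7 (42.9%, against 12.0% of all rows), all lower. Without control replicate 2 the median was -0.09 with 4 of 7 lower, and without control replicate 1 it was -0.88. With each array left out, the 3 markers under this p stayed lower: Cdk1 (-1.27 to -1.20), Ccna2 (-1.07 to -0.91) and Aurkb (-0.86 to -0.81). The widest ranges were those of Ccnb1 (-0.88 to 0.20) and Birc5 (-1.05 to -0.09). The part of cycling cells in the sterol result was not tested.

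**Figure D1:**
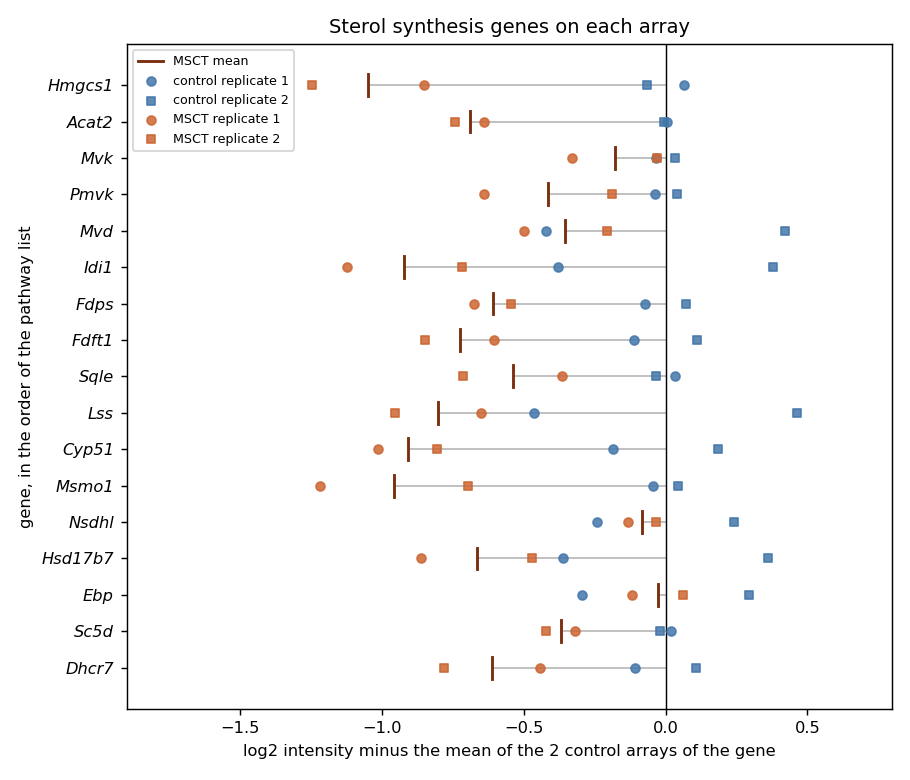
Log2 intensity of the 17 sterol synthesis genes (vertical axis) on each of the 4 arrays, shown minus the mean of the 2 control arrays of the gene (horizontal axis). Circles are replicate 1, squares replicate 2, and the vertical bar is the mean of the 2 MSCT arrays, which lies below 0 for every gene, from -1.05 for Hmgcs1 to -0.03 for Ebp.

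In the mevalonate part of the pathway, the first 2 enzymes were among the lower genes. Hmgcs1 (NM_017268), which encodes the cytosolic HMG-CoA synthase, was at 12.72 and 12.59 in the controls and 11.80 and 11.41 after MSCT. It fell by 1.05 (standard error 0.23, 95% interval -1.66 to -0.44; limma adjusted p = 0.295), or 2.07-fold, and the gap between the groups was larger than the gap between replicates in either. Without MSCT replicate 2 its difference was -0.85 and without control replicate 1 it was -0.98, both under 2-fold. Acat2, the cytosolic thiolase that joins acetyl-CoA units, had close replicates, at 11.24 and 11.22 against 10.59 and 10.49. Its difference of -0.69 (standard error 0.18) was well above that spread and below 2-fold.

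The steps from mevalonate to farnesyl diphosphate were less even. The kinases Mvk and Pmvk differed by -0.18 and -0.42, and for Mvk the second MSCT array (10.550) reached the first control array (10.546). Mvd, the mevalonate diphosphate decarboxylase, was at 10.13 and 10.98 in the controls and 10.06 and 10.35 after MSCT, so its groups overlapped. Idi1, which interconverts the isoprenoid units, lay at 8.52 and 9.28 against 7.77 and 8.18, which differ by -0.92 (standard error 0.34), with control arrays that stood 0.76 apart. Its gene model overlaps that of Wdr37 in RefSeq, and whether its probes see both is not known. Fdps, the synthase of farnesyl diphosphate, was at 11.50 and 11.65 against 10.90 and 11.03, with no overlap and a difference of -0.61 (standard error 0.19).

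From farnesyl diphosphate through squalene to lanosterol, the 3 enzymes were lower without overlap of the groups. Fdft1, the squalene synthase, was at 12.64 and 12.86 in the controls and 12.14 and 11.90 after MSCT (difference -0.73, standard error 0.21). Sqle, the squalene epoxidase, a rate-limiting step, was at 10.94 and 10.87 against 10.54 and 10.19 (difference -0.54, standard error 0.22). Lss, the lanosterol synthase, had its control arrays 0.93 apart, at 9.48 and 10.41, against 9.29 and 8.99. Its difference of -0.80 was therefore -0.34 when control replicate 2 was left out and -1.27 when control replicate 1 was.

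After lanosterol, the first demethylation steps had differences close to that of Hmgcs1 and the isomerase Ebp was near 0. Cyp51, the lanosterol 14-alpha-demethylase, was at 11.80 and 12.17 against 10.97 and 11.18, a difference of -0.91 (standard error 0.23). Msmo1, the methylsterol oxidase, was at 11.74 and 11.82 against 10.56 and 11.09, a difference of -0.96 (standard error 0.25). These are differences of 1.88-fold and 1.94-fold, just inside the limit of 2-fold. Nsdhl (-0.08) and Ebp (-0.03), which act in the same stretch of the pathway, overlapped between the groups, while Hsd17b7 (-0.67), Sc5d (-0.37) and Dhcr7 (-0.61) did not. Dhcr7, which makes the last double bond reduction of the Kandutsch-Russell route, was at 10.49 and 10.70 against 10.15 and 9.81. Sc5d had narrow replicates, at 11.77 and 11.73 against 11.43 and 11.33.

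Of the genes that govern this pathway, Srebf2 (NM_001033694) was lower with close replicates. It was at 11.19 and 11.22 in the controls and 10.21 and 10.27 after MSCT, a difference of -0.97 (standard error 0.18, 95% interval -1.45 to -0.48; limma adjusted p = 0.276), or 1.95-fold and so just below the limit. With each array left out in turn it stayed between -0.997 and -0.937. Insig1, itself a known SREBP target that retains the SREBP complex in the endoplasmic reticulum, was at 13.31 and 13.40 against 12.82 and 13.01. The groups of Insig1 did not overlap, with a difference of -0.44 (standard error 0.19). Insig2, whose product has the same role, overlapped between the groups (0.12), and so did Npc2, which carries cholesterol out of lysosomes (0.09).

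For promoters, the set of windows used here held 33 of the 40 measured genes, 14 of them in sterol synthesis. Each window had 250 bases before and 50 after the start of the gene. The letters TCACNCCAC, a core of the sterol regulatory element, were searched on both strands and were in 0 of the 33 windows, against 1.12% of all 33469 windows of the same length, which says only that these letters are not there. The letters CCAAT, the box bound by NF-Y, a factor known to act beside SREBPs, were in 11 of the 14 sterol synthesis windows (78.6%) and in 26 of the 33 (78.8%), against 37.5% of all windows and 38.2% of those of measured named genes. The box was as common among the listed cycling cell markers, in 9 of 11 windows (81.8%). Within sterol synthesis, the windows of Acat2, Cyp51 and Dhcr7 held none. The windows of Hmgcs1, Msmo1, Srebf2 and Soat1 follow. They are printed because Hmgcs1 fell most in its pathway, Msmo1 was the next lowest enzyme and holds 3 boxes, Srebf2 encodes the regulator, and Soat1 moved the other way. They run 5′ to 3′ along the gene's strand, and the capitals mark each CCAAT or its reverse complement.

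Hmgcs1 (GRCr8 chr2:53382054-53382353, plus strand): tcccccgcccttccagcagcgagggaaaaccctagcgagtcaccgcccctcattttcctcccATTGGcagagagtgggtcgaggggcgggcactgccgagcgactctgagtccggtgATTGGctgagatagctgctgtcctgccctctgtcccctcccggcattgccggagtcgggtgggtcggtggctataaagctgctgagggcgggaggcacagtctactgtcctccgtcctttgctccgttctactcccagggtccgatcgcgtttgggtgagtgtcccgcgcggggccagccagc
Msmo1 (GRCr8 chr16:29746863-29747162, plus strand): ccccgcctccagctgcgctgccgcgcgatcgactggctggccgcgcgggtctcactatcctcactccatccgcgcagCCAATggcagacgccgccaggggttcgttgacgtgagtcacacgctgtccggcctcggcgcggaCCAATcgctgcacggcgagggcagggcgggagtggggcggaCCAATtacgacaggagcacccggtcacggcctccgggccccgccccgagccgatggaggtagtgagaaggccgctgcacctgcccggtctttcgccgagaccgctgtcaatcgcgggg
Srebf2 (GRCr8 chr7:115543057-115543356, plus strand): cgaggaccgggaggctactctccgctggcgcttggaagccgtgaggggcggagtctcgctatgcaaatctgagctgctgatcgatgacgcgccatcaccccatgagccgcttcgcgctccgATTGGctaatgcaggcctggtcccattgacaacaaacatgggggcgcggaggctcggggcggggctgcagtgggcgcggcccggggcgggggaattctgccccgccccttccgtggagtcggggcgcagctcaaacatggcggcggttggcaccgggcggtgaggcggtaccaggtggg
Soat1 (GRCr8 chr13:71147623-71147922, minus strand): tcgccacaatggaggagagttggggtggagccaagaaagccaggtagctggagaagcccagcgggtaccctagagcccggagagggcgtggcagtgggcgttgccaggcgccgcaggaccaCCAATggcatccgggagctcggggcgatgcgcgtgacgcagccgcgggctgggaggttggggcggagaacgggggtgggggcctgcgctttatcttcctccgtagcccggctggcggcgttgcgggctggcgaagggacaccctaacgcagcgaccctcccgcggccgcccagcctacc

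In Hmgcs1 and Srebf2 the box was on the opposite strand, in Msmo1 and Soat1 on the gene's own strand, and a match of letters is not a binding site. The array values do not bear on binding.

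Soat1 (NM_031118) went against the sterol synthesis genes. It encodes the acyltransferase of the endoplasmic reticulum that esterifies cholesterol for storage in lipid droplets, and it was at 8.67 and 8.71 in the controls and 10.23 and 10.32 after MSCT. It rose by 1.59 (standard error 0.18, 95% interval 1.10 to 2.08; limma adjusted p = 0.257), or 3.01-fold, a difference many times the spread between replicates. With each array left out it stayed between 1.55 and 1.63 and passed both limits each time.

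Dgat2 (NM_001012345), which completes triglyceride synthesis by adding the last acyl chain, rose with Soat1. It was at 8.64 and 9.09 in the controls and 10.90 and 10.41 after MSCT. The difference was 1.79 (standard error 0.29, 95% interval 1.03 to 2.56; limma adjusted p = 0.260), or 3.46-fold, and it passed both limits with any array left out (1.54 to 2.04). The earlier steps of glycerolipid synthesis had no common direction. Among further genes of these steps, Gpat3 (0.44), Gpat4 (0.23) and Agpat4 (0.44) were higher and Lpin3 (-0.48) was lower. None of these had an unadjusted limma p under 0.05. The listed genes of the earlier steps had differences near 0 or lower. Gpam, the mitochondrial glycerol-3-phosphate acyltransferase, differed by -0.04 (0.0031 with equal array medians and 0.021 after quantile normalization), Agpat1 by -0.18 and the phosphatidate phosphatase Lpin1 by -0.41, none with an unadjusted limma p under 0.05. Dgat1, the other diacylglycerol acyltransferase, differed by 0.12, and Soat2, the other sterol acyltransferase, by -0.33 with MSCT arrays at 6.98 and 8.34.

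Most of the measured markers of macrophages, cells known to express Soat1, differed in the same direction as Soat1 and Dgat2. Of the 13 immune markers listed, 5 were measured, and 4 of these were higher in the MSCT group, Aif1 by 1.39, Cd68 by 1.29, Csf1r by 1.00 and Lyz2 by 0.88, while Cd14 differed by -0.04. Aif1, Cd68 and Csf1r passed both limits (3 of 5, against 4.63% of all rows and 2.12% higher). Cd68 passed with any array left out, but Csf1r in 2 of these 4 fits (0.96 to 1.05) and Aif1 in 1, with 0.90 without MSCT replicate 2 and 1.89 without MSCT replicate 1. The summed intensity of the 5 markers was 12207 and 13631 in the controls and 14710 and 17475 after MSCT. Most of this sum was Cd14, at 9308 and 10814 against 8986 and 10578. Ptprc, the pan-leukocyte marker, had no row by name. Their part in the rise of Soat1 and Dgat2 was not tested.

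**Figure D2:**
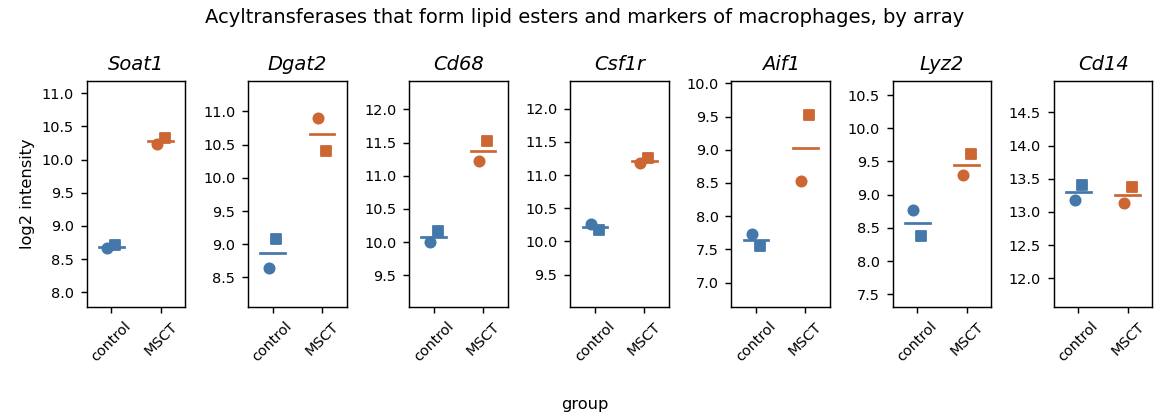
Log2 intensity (vertical axes, each with the same span) of Soat1, Dgat2 and the 5 measured immune markers in the control and MSCT groups, with circles for replicate 1, squares for replicate 2 and lines for group means. The groups do not overlap for any gene but Cd14, and Soat1 lies at 8.67 and 8.71 against 10.23 and 10.32. In 21.3% of all rows and 27.4% of named rows both MSCT arrays lie above both control arrays.

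Fatty acid synthesis and modification had no common direction. The carboxylases make malonyl-CoA, fatty acid synthase extends it to palmitate, and elongases and desaturases then modify the chain. Of the 14 measured genes around fatty acid synthesis, desaturation and elongation, 7 were higher and 7 lower in the MSCT group, with a median difference of 0.03. Below an unadjusted limma p of 0.05 were 4 genes (28.6%, against 12.0% of all rows), Acaca, Acacb, Scd2 and Fads2, all lower. The MSCT arrays lay below the control arrays in 5 genes and above them in 3, against 24.5% and 21.3% of all rows. The median of the sterol synthesis genes was lower by a difference of -0.64 than that of these 14 genes. This gap, for which no test was run, was between -0.78 and -0.41 with each array left out, the smallest without control replicate 1.

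Of the genes that supply or build the chain, both acetyl-CoA carboxylases were lower, while the other 5 had no unadjusted limma p under 0.05. Acacb, the isoform at mitochondria whose product restrains fatty acid oxidation, was at 9.34 and 9.36 in the controls and 8.52 and 8.34 after MSCT. Its difference was -0.92 (standard error 0.19, 1.89-fold), with control arrays 0.02 apart. Acaca, the cytosolic isoform, was at 9.19 and 9.07 against 8.69 and 8.18, a difference of -0.69 (standard error 0.25). Neither passed the limit of 2-fold. Their gene products are related, and the deposited values do not show whether their probes share signal. The gene model of Acaca also overlaps another gene in RefSeq.

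The remaining genes of this step overlapped between the groups, apart from Mlycd. Fasn, the fatty acid synthase, was at 11.93 and 12.56 in the controls and 12.12 and 12.29 after MSCT, a difference of -0.04 with a 95% interval from -0.79 to 0.71. Acly, which supplies cytosolic acetyl-CoA from citrate, differed by 0.15 and Me1, a source of NADPH, by 0.09. Thrsp, a lipogenic regulator, had control arrays 1.35 apart, at 7.92 and 9.28, so its difference of 0.42 became -0.26 when control replicate 1 was left out and 1.09 when control replicate 2 was. Mlycd, which breaks malonyl-CoA down, was higher by 0.31 without overlap of the groups (10.63 and 10.57 against 11.05 and 10.78).

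Among the desaturases, Scd2 and Fads2 were lower. Scd2 (NM_031841), a stearoyl-CoA desaturase, was at 13.12 and 13.89 in the controls and 12.52 and 12.27 after MSCT. It fell by 1.10 (standard error 0.32, 95% interval -1.97 to -0.24; limma adjusted p = 0.344), or 2.15-fold, but by 0.72 without control replicate 2 and by 0.98 without MSCT replicate 2, where it no longer passed. Scd, its close paralog, had control arrays 1.68 apart (9.15 and 10.84) on either side of the MSCT arrays (10.12 and 9.81), and its difference of -0.04 was 0.0031 with equal array medians. How far the probes of this pair share signal is not known. Fads2, the first desaturase in the path to long polyunsaturated fatty acids, was at 10.14 and 10.20 against 9.15 and 9.52, a difference of -0.83 (standard error 0.22). Fads1, which acts after it, differed by -0.39 with no overlap.

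The elongases were on the other side. Elovl1, which extends very long saturated chains, was at 11.93 and 12.10 in the controls and 12.27 and 12.47 after MSCT, a difference of 0.36 (standard error 0.20). Elovl6, which extends palmitate, was at 10.60 on both MSCT arrays and at 9.60 and 10.47 on the control arrays, a difference of 0.56 that was 0.13 without control replicate 1. Elovl5 differed by 0.09 with overlap. None of the 3 had an unadjusted limma p under 0.05.

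**Figure D3:**
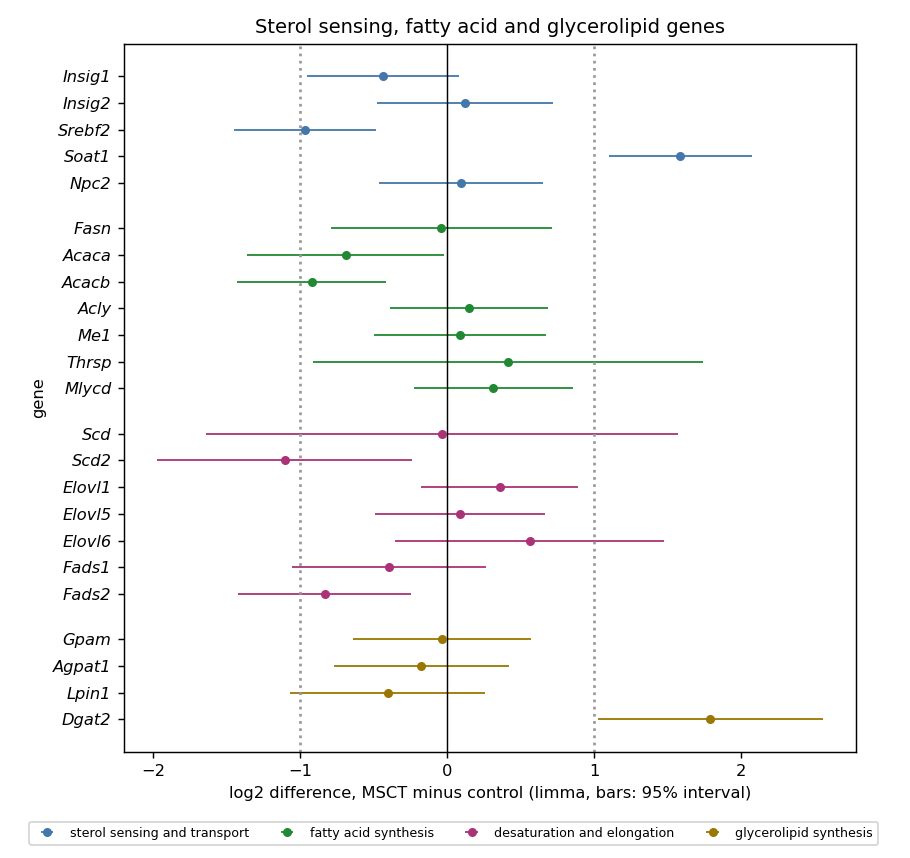
Log2 difference (MSCT minus control, horizontal axis) of the 23 measured genes outside sterol synthesis, with the 95% interval of limma as bars and dotted lines at the limit of 2-fold. Soat1 (1.59) and Dgat2 (1.79) lie above the upper line, Scd2 (-1.10) below the lower one, and 11 of the 23 are above 0.

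Across the 40 genes, 4 passed both limits (10.0%, against 4.63% of all rows), Soat1 and Dgat2 higher and Hmgcs1 and Scd2 lower. At an unadjusted limma p under 0.05 were 15 genes (37.5%, against 12.0%), 13 of them lower (7.17% of all rows) and 2 higher (4.80%). By the methods' t-test, 10 of the 40 had a p under 0.05 (against 9.66% of all rows), 8 of them lower (against 5.26%), and 3 passed both limits (against 2.11% of all rows), since Scd2 did not. With a variance that depends on intensity (the trend and robust options of limma), an adjusted p under 0.05 over all rows was reached by 7 of the 40 (against 2.11% of rows), 5 of them lower (against 0.954%), namely Dgat2, Hmgcs1, Soat1, Srebf2, Scd2, Cyp51 and Msmo1. Without the dimmest 50% of rows, 3 of the 30 genes left did (against 2.69%), Dgat2 higher and Hmgcs1 and Srebf2 lower (against 1.31% lower). Soat1 was not among the rows left. The filter used the mean of all 4 arrays, and Dgat2 stood at its edge (rank 50.05%). Its control values (8.64 and 9.09) lay below the medians of those arrays (9.79 and 9.80). Dgat2 was thus kept through its MSCT arrays, and its call in this fit is not separate support. In that fit 9 of the 14 sterol synthesis genes left had an unadjusted limma p under 0.05, all lower, against 18.9% of rows in either direction and 9.71% lower.

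**Figure D4:**
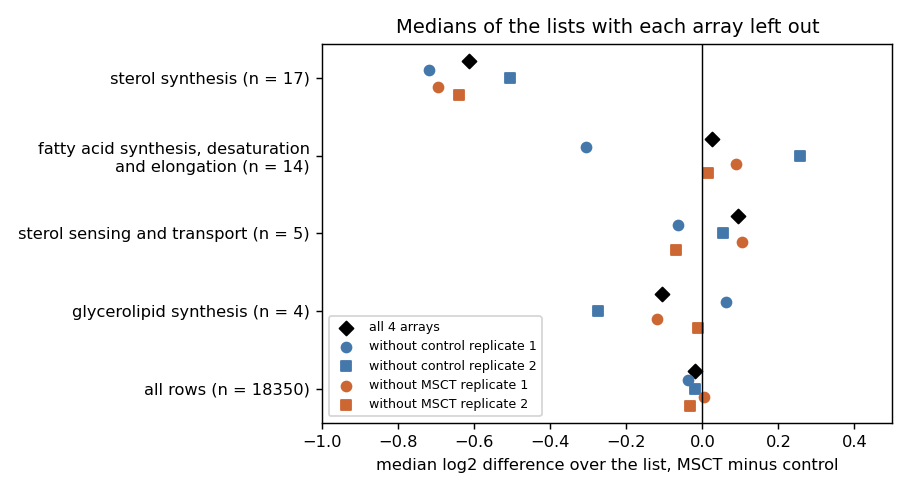
Median log2 difference (horizontal axis) of each list of genes and of all rows, with all 4 arrays (diamonds) and with each array left out. The median of sterol synthesis stays between -0.72 and -0.51, whereas that of fatty acid synthesis, desaturation and elongation lies between -0.31 and 0.26, with the extremes when a control array is left out.

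Further genes of the sterol pathway had no common direction. Of 32 listed, 21 were measured, 9 higher and 12 lower, with a median of -0.02, and 2 had an unadjusted limma p under 0.05 (9.52%, against 12.0%). Cyp27a1, the sterol 27-hydroxylase that makes oxysterols and bile acid precursors, was the 1 past both limits (4.76%, against 4.63% of all rows). The gene was at 10.18 and 10.63 in the controls and 8.70 and 9.71 after MSCT (fell by 1.20, standard error 0.41). It was at -0.69 without MSCT replicate 1 and -1.71 without MSCT replicate 2, and it passed in 1 of the 4 fits with an array left out and not by the methods' t-test. Among them were Tm7sf2, another enzyme of synthesis after lanosterol (-0.67, with overlap), and the cholesterol exporters Abca1 (0.36) and Abcg1 (0.52), whose groups did not overlap. The largest difference upward was that of Ggps1, the geranylgeranyl diphosphate synthase (0.73, standard error 0.33), at 8.49 and 8.73 against 9.73 and 8.95. It was 0.34 without MSCT replicate 1 and 1.13 without MSCT replicate 2. Acat1, the mitochondrial thiolase, differed by 0.57, opposite to its cytosolic relative Acat2.

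In the list of further fatty acid genes, 23 of 48 were measured, 14 higher and 9 lower, with a median of 0.07. None passed both limits, and 2 had an unadjusted limma p under 0.05, both lower (8.70%, against 12.0%). These were Mlxipl, the carbohydrate-responsive regulator ChREBP, at 12.33 and 12.28 against 11.68 and 11.67 (difference -0.64, standard error 0.18), and Acsl4, a ligase that activates arachidonate (-0.57). The largest difference upward was that of Idh1, a cytosolic source of NADPH (0.56).

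Markers of other cell types were measured beside these lists. A summed intensity is weighted to the brightest genes of its list. Of 18 adipocyte markers 11 were measured, 4 higher and 7 lower, with a median of -0.04 and a summed intensity of 35020 and 36625 against 30993 and 29112. The largest part of this sum was Pck1, at 19888 and 23039 against 16286 and 14593, so the lower sum does not describe the list. Adipoq was blank on all arrays and Plin1 had no row by name. In the epithelium list Tff3 was past both limits (1.49), and the summed intensity was 229899 and 221327 against 254789 and 247267. The neural and glial list had 7 of 10 lower (median -0.35) and a summed intensity of 13443 and 14322 against 10949 and 12400. Elavl4 of this list was past both limits (fell by 1.06), but at -0.67 without control replicate 1 and -1.46 without control replicate 2, and it passed in 1 of the 4 fits with an array left out and not by the methods' t-test. The summed intensity of the smooth muscle markers was 182219 and 148456 against 168362 and 163937, and Myh11 had no row by name.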

How the data were processed

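Per the paper, images from a GenePix instrument went through NimbleScan software, and the authors deposited 1 linear intensity per RefSeq transcript and array, and RMA is named in the submitters' processing notes; its settings and the rule that left 8070 of 26420 rows blank are not given in the sources used here. Intensities were converted to log2 values without a pseudocount, further scaling or filter, and 0 value columns lacked a sample. The lmFit and eBayes functions of limma (version 3.58.1, R 4.3.3) compared the groups over 18350 rows, with Benjamini-Hochberg adjustment over all of them. The series text gives 2 separate rats per group, and this number limits the precision. Accessions were named through the RefSeq table of GRCr8 (7068 rows named). The fit was tested on simulated data, with 200 rows changed in each of 10 simulations. Of rows with a log2 change of 1, 43.15% passed both limits, and of rows with a change of 2, 93.5% did. On average 274.6 and 265 unchanged rows passed as well. The genes and lists were chosen with earlier results of these data known. All listed genes of sterol and fatty acid synthesis may be named. Of other lists, those past both limits, the largest difference in each direction and defining markers may be named. Dgat1, Soat2, Tm7sf2, Abca1, Abcg1, Acat1, Acsl4, Lyz2 and Cd14 were named after their values were seen. So were Gpat3, Gpat4, Agpat4, Lpin3, Pck1, Ccna2, Aurkb, Ccnb1 and Birc5. Alternatives were the methods' t-test (one-way analysis of variance for 2 groups), quantile normalization, equal array medians, filters on dim rows, trend and robust variance, the replicate number as a block, each array left out, the mean of the rows of a gene and folds of linear means. Python 3.11.15 was used for names, promoter letters and figures.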

Additional observations from a re-analysis of the deposited data

How the results depend on the processing

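The 4 arrays limit every value, and no fit tells the animal from the group. Over all rows, the 850 rows past both limits were 388 by the methods' t-test and 251 without the dimmest 50% of rows, and 934 to 1565 with each array left out, where the lone array of a group is assumed to vary like the other group. Of the 40 genes, 4 to 7 passed both limits with each array left out (7 without control replicate 1), and 7 to 15 had an unadjusted p under 0.05 (7 without MSCT replicate 1, 8 without MSCT replicate 2), against 4 and 15 with all arrays. The median of sterol synthesis kept its sign, from -0.72 to -0.51. The sterol sensing and transport median (0.09) was -0.070 to 0.10 with arrays left out and -0.17 without the dimmest 50% of rows. The glycerolipid median (-0.11) was -0.27 to 0.063 and 0.81 in those cases, over 2 genes in the latter (Agpat1 and Dgat2), since fewer genes were left. The fatty acid, desaturation and elongation median ranged from -0.31 to 0.26 and its gap to sterol synthesis from -0.78 to -0.41. With equal array medians Ebp (0.011), Scd (0.0031) and Gpam (0.0031) changed sign, as did Gpam after quantile normalization (0.021). With single arrays left out, sign changes touched 11 genes, all with an unadjusted limma p over 0.05: Mvd (-0.77 to 0.068), Nsdhl (-0.32 to 0.16), Ebp (-0.32 to 0.27), Insig2 (-0.070 to 0.31), Npc2 (-0.064 to 0.25), Fasn (-0.35 to 0.27), Me1 (-0.10 to 0.27), Thrsp (-0.26 to 1.09), Scd (-0.88 to 0.81), Elovl5 (-0.068 to 0.24) and Gpam (-0.23 to 0.16). The replicate numbers pair nothing in the labels, and the deviations of same-numbered arrays correlated at 0.23 across rows. With the replicate block, 971 rows (5.29%) passed both limits, among them 4 of the 40 genes (10.0%). At an unadjusted limma p under 0.05 in that fit were 15 of the 40 (37.5%, against 14.6% of all rows). Each measured gene had 1 row, so the mean of rows gave the same values and was not run.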
